A study of Mus musculus with 11 samples.

Results

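The transforming growth factor beta (TGF beta), bone morphogenetic protein (BMP) and activin pathway was followed through 36 genes in embryonic day 17 (E17) mouse kidneys that were wild-type or Robo2 homozygous. The members were picked by name for their role in the pathway. They comprised 11 ligands, 10 receptors, 7 Smads, 4 antagonists and 4 Id genes, and all 36 were found among the 18193 genes that the arrays name. A gene was read by its brightest probe set, chosen by the mean log2 intensity over the arrays, and 25 members had further probe sets, which gave 81 in all.

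Ligands of this family are secreted as dimers and bring type I and type II receptor kinases together on the cell surface. The receptors phosphorylate receptor Smads, which join Smad4 and enter the nucleus. BMP ligands act mainly through Smad1 and Smad5, and TGF beta and activin through Smad2 and Smad3. The inhibitory Smads 6 and 7 and secreted binding proteins such as noggin, chordin and follistatin hold the signal back, and the Id genes are among the best known direct targets of BMP signalling. In the developing kidney, Bmp7 sustains nephron progenitors, Bmp4 acts around the nephric duct and ureter, and activin restrains ureteric budding. Robo2 is a receptor for Slit ligands that restricts where the ureteric bud grows out.

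Each of 11 RNA samples was hybridised to 1 Affymetrix array, and the labels name the genotype only as wild-type or Robo2 homozygous. The sources used here do not give the allele, the strain or the number of animals behind a sample. The E17R2 series held 3 wild-type arrays (replicates 1, 3 and 7) and 3 homozygous arrays (replicates 2, 8 and 9). The R2E17 series held 1 array of each genotype. A further 3 homozygous arrays carried R2NB in their titles, and the sources used here do not say what NB stands for. Since the labels do not tie replicates to separate animals, the p-values reflect the spread among the samples as they are, and part of that spread may be technical. The R2E17 and R2NB arrays, called the set of 5, had median intensities of 47.1 to 53.4, and the E17R2 arrays, called the set of 6, had 23.4 to 24.6. The sets had thus been normalized apart, and the title series, the normalization and any other difference between the sets cannot be told apart. The number of arrays limits the precision.

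Robo2 itself read 3.13, 3.68 and 3.16 on the log2 intensity scale in the E17R2 wild-type arrays and 2.03, 2.37 and 2.33 in the homozygous ones, with no overlap. The R2E17 pair read 3.96 in wild-type and 3.37 in homozygous, and the R2NB arrays read 3.28, 3.86 and 3.99, so R2NB reached the wild-type value. The sources used here do not say which part of Robo2 the probe set reads. Some free-text labels speak of human brain, against the organism and tissue labels. Kidney nephron and duct markers, 12 of 14 measured, had a median percentile of 71.9 to 91.7 within their arrays, and brain markers, 9 of 10 measured, 11.1 to 19.3. In E17R2 homozygous replicate 9 all 10 smooth muscle markers were the highest of the set of 6. Their summed intensity was 5512 to 5984 in wild-type and 4562 to 41209 in homozygous arrays. In homozygous replicate 2, 7 of 9 measured gonad markers were the highest. Their sums ran from 204 to 535 in wild-type and from 218 to 1203 in homozygous arrays. The R2E17 wild-type array had a 3' minus 5' log2 value of 0.70 for the Gapdh control and 1.12 for Actb, against at most 0.22 and 0.75 elsewhere. No RMA intensity is 0, and the lowest was 2.65, so absence of a marker cannot be read from these values. In tissue RNA, fewer cells of a type and less RNA per cell cannot be told apart.

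**Figure D1:**
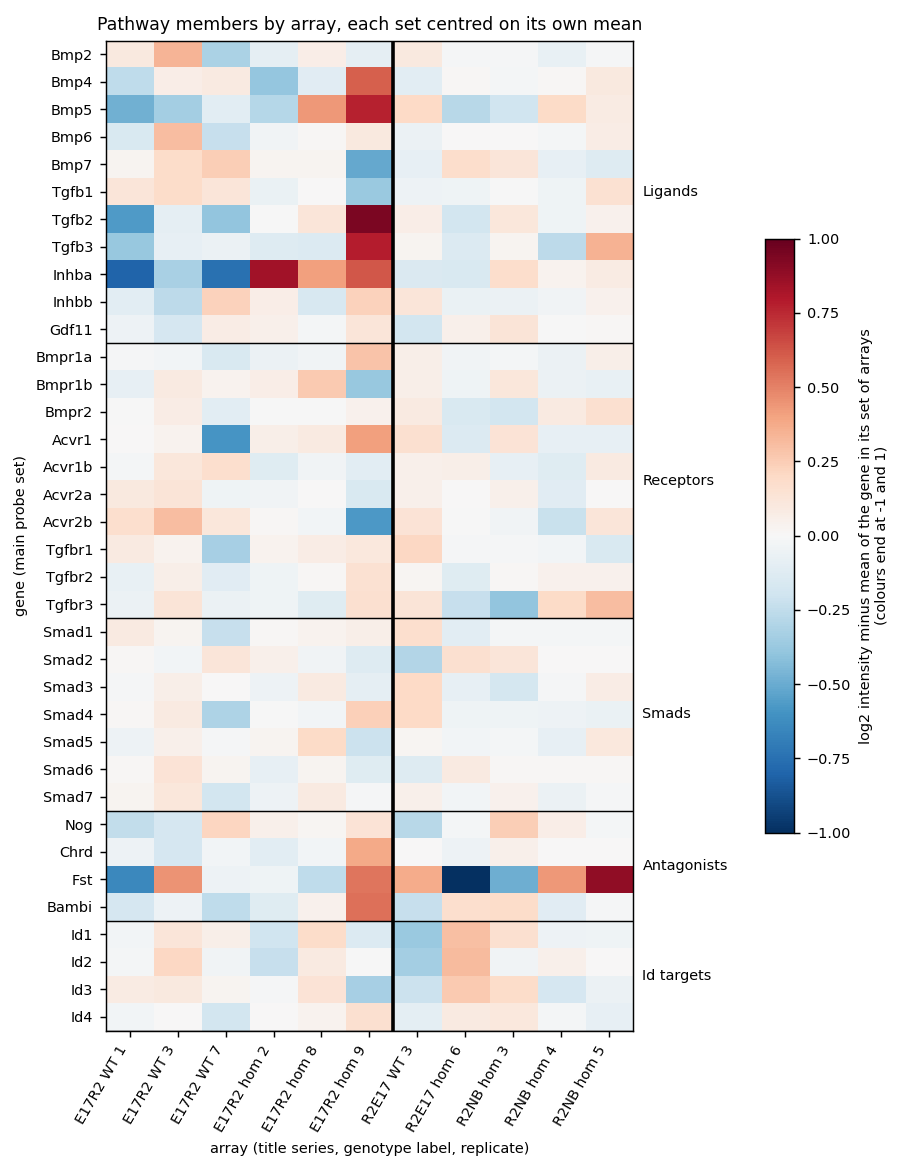
Log2 intensity of each of the 36 members on each of the 11 arrays, shown as the deviation from the gene's mean within its normalized set of arrays, with rows grouped by role. Inhba is above its mean in the 3 homozygous E17R2 arrays and below it in the 3 wild-type arrays, and several ligands depart most in homozygous replicate 9.

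The E17R2 arrays asked how the members differ between Robo2 homozygous and wild-type kidneys. The smallest p value belonged to Inhba, the beta A subunit of activin A, which was 2.37-fold higher in homozygous kidneys. Tgfb2 was 1.63-fold higher and Tgfb1 1.22-fold lower. By their brightest probe sets the Smads and the Id genes differed by at most 0.14 on the log2 scale in either direction. None of these differences passed the adjustment over all genes in limma. Of the 36 members 0 had an adjusted p under 0.05, as did 0 (0%) of all genes. At an unadjusted p under 0.05 there were 3 members, of which 2 were higher and 1 lower. The background is 5.60% of all genes at that level, so 3 of 36 is little above it. The median difference over the members was 0.06 on the log2 scale, against -0.01 over all genes, and 22 of the 36 members and 8574 of the 18193 genes were above 0. The member median rested on single arrays: it was -0.0078 without wild-type replicate 7, 0.0087 without wild-type replicate 1 and 0.013 without homozygous replicate 9.

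Inhba (probe set 1422053_at) had log2 intensities of 4.93, 5.40 and 4.98 in wild-type replicates 1, 3 and 7 and of 6.57, 6.14 and 6.35 in homozygous replicates 2, 8 and 9. Every homozygous array lay above every wild-type array. Among all genes of an array these values ranked at percentiles 36.1 to 53.6, and a filter on dim probe sets drops Inhba. The means were 5.11 ± 0.26 and 6.35 ± 0.22 (SD, n = 3 each). The log2 difference was 1.25 ± 0.17 (SE). Its adjusted p in limma was 0.840 (Benjamini-Hochberg over all genes), and the unadjusted value was 0.000176. Leaving out any one array kept the difference between 1.14 and 1.39, with unadjusted limma p values of at most 0.0011. It was 1.25 without homozygous replicate 9 and 1.14 without homozygous replicate 2. The second Inhba probe set, 1458291_at, was dimmer and differed by 0.54. In the R2E17 pair Inhba read 5.74 and 5.73, so the single homozygous array of that series was not higher, and the R2NB arrays read 6.06, 5.92 and 5.97.

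**Figure D2:**
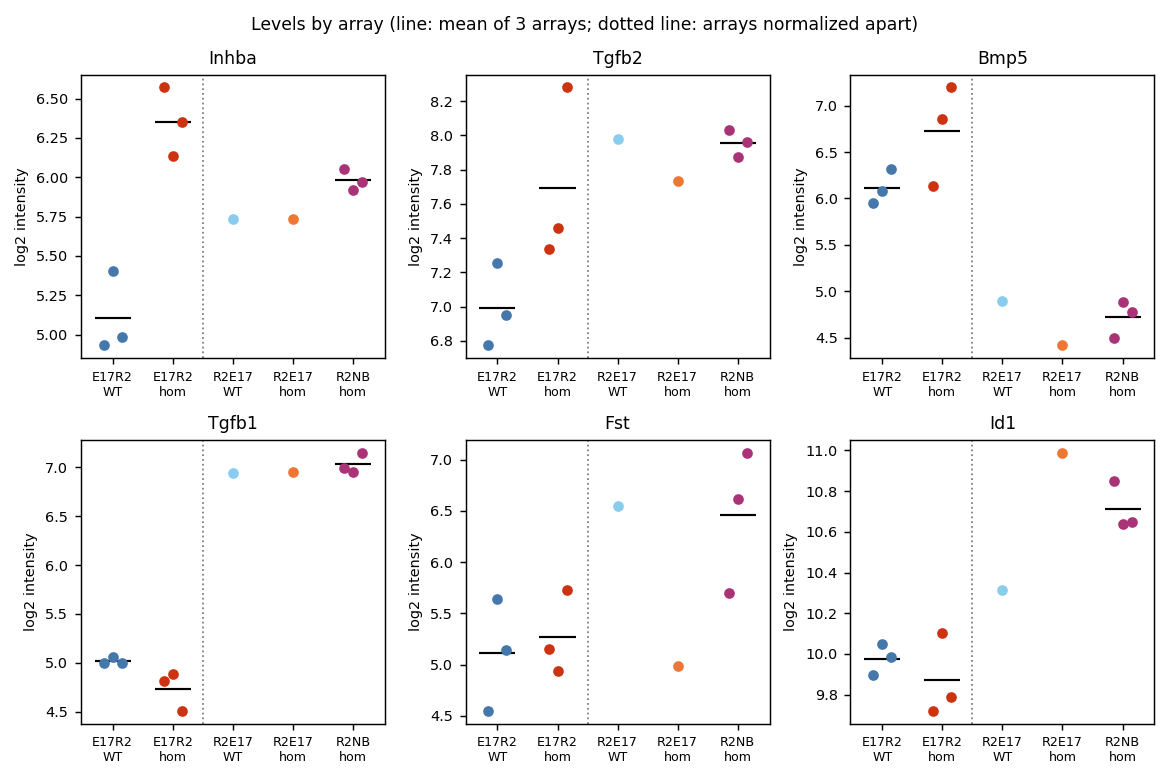
Log2 intensity per array of the members that the results turn on, with arrays grouped along the horizontal axis by title series and genotype and 1 point per array. Levels of the set of 5 and the set of 6 come from separate normalizations, so heights compare within a set; Inhba separates the E17R2 genotypes, while homozygous replicate 9 holds the highest Tgfb2 and Bmp5 values of the E17R2 arrays.

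Tgfb2, a ligand that signals through the TGF beta receptors, read 6.77, 7.25 and 6.95 in wild-type and 7.34, 7.46 and 8.28 in homozygous E17R2 arrays. The groups did not overlap, but replicate 9 stood well above the other homozygous arrays. Homozygous kidneys exceeded wild-type by 0.70 ± 0.26 (SE), at limma p values of 0.0334 unadjusted and 0.840 adjusted. Without homozygous replicate 9, the array with the high smooth muscle markers, it was 0.41. All 4 Tgfb2 probe sets were higher in homozygous arrays, by 0.49 to 0.84.

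Tgfb1, the founding TGF beta ligand, read 5.0, 5.06 and 5.0 in wild-type and 4.81, 4.89 and 4.51 in homozygous arrays. Every homozygous array was lower, and replicate 9 was the lowest. Among all genes of an array these values ranked at percentiles 31.2 to 37.7, and the filter on dim probe sets drops Tgfb1 too. The shift was -0.28 ± 0.12 (SE), at limma p values of 0.0458 unadjusted and 0.840 adjusted, and it was -0.17 without replicate 9. The second Tgfb1 probe set gave -0.02.

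Bmp5 read 5.95, 6.08 and 6.32 in wild-type and 6.14, 6.86 and 7.20 in homozygous arrays. Homozygous replicate 2 fell among the wild-type values, and the other 2 homozygous arrays lay above them. The difference of 0.61 became 0.38 without homozygous replicate 9. By the other Bmp5 probe sets, which were dimmer, it was 0.17 and -0.05. Tgfb3 gave 0.34 with replicate 9 and 0.04 without it, and Bmp4 turned from 0.07 to -0.22. Other marker lists separated the genotypes on all 6 arrays. The summed intensity of 6 stroma and fibroblast markers was 12869 to 14305 in wild-type and 16043 to 22816 in homozygous arrays, and each of the 6 had the higher mean in homozygous kidneys. The kidney nephron and duct markers summed to 8371 to 8528 against 4716 to 7645, and the 6 endothelial markers to 2302 to 2463 against 1575 to 2125. Liver markers, 5 measured, were all highest in wild-type replicate 7. The part of smooth muscle, stroma or other tissue in the differences of the members was not tested. The other ligands, Bmp2, Bmp6, Bmp7, Inhbb and Gdf11, differed by -0.30 to 0.10. For Inhbb, the beta B subunit of activin B, the brighter probe set gave 0.09 and the second 0.94. In that second probe set homozygous replicate 2 read 6.55 and the other 5 arrays 3.55 to 4.25. Replicate 2 is also the array with the high gonad markers, whose part in that value was not tested. Of the 25 members with several probe sets, 7 had all of them on the same side of 0.

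**Figure D3:**
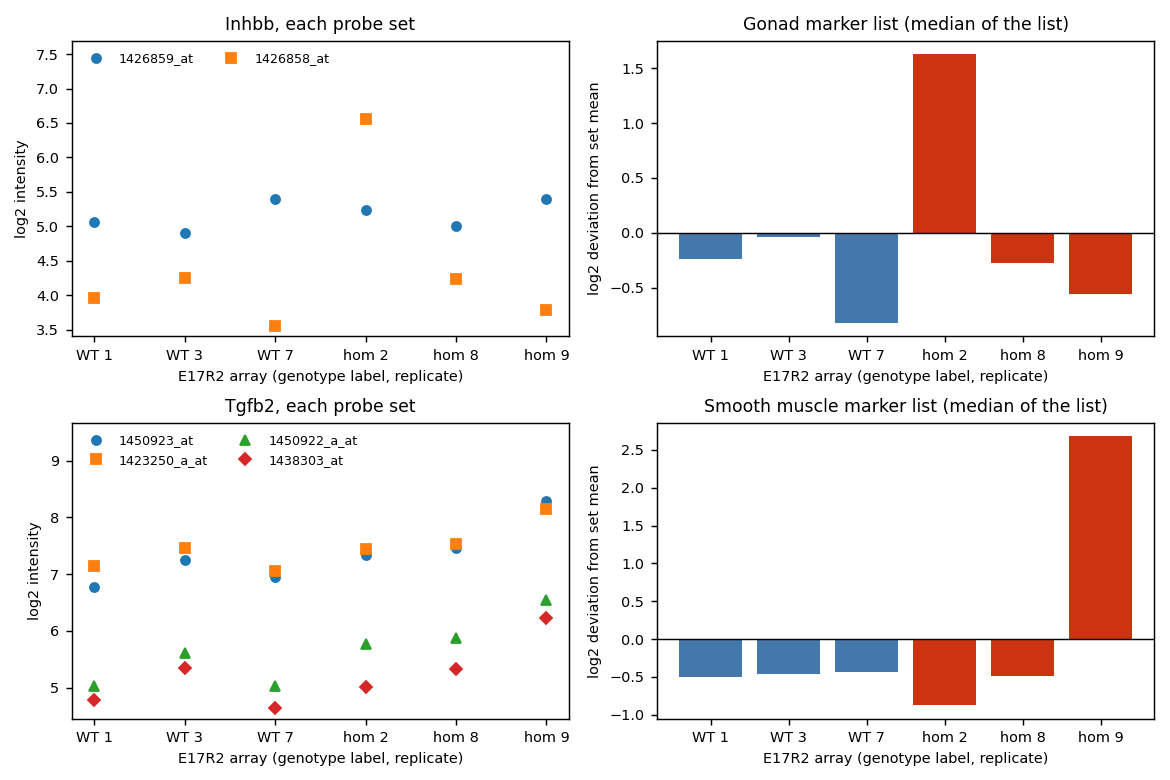
Log2 intensity of each Inhbb and Tgfb2 probe set on the 6 E17R2 arrays (left, 1 point per array), beside the median log2 deviation of the gonad and smooth muscle marker lists from the mean of the set on the same arrays (right, bars). One Inhbb probe set reads 6.55 in homozygous replicate 2, where the gonad list stands at 1.63, and all 4 Tgfb2 probe sets are highest in homozygous replicate 9, where the smooth muscle list stands at 2.68.

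The promoters of the 3 ligands with the smallest p values are shown for that rank alone, and none of the 3 passed the adjustment over all genes. Each is the 250 bases before the annotated start in RefSeq (assembly GRCm38.p6), written 5′ to 3′ on the strand of the gene, and 25 of the 36 members had an entry. Motifs searched on both strands were GTCTAGAC, a palindromic Smad site, GTCTG, which holds the Smad core, and GGCGCC, a GC-rich Smad element. GTCTG reads CAGAC on the other strand, and none of the motifs contains another. Matches are in capitals.
Inhba, chr13:16011601-16011850, plus strand: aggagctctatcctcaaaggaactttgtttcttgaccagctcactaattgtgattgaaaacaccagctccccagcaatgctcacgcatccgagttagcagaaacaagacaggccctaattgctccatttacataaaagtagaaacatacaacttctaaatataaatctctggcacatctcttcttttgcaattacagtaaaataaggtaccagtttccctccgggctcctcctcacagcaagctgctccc
Tgfb2, chr1:186705990-186706239, minus strand: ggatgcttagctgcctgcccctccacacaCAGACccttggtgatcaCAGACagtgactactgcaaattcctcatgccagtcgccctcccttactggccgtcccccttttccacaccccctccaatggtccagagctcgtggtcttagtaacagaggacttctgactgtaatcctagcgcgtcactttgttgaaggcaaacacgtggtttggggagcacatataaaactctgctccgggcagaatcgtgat
Tgfb1, chr7:25686752-25687001, plus strand: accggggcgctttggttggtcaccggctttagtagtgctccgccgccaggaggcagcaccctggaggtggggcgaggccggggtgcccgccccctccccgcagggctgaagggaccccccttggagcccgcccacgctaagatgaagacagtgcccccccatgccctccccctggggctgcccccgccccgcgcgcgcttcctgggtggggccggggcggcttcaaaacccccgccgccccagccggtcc
Tgfb2 held GTCTG in its CAGAC form 221 and 204 bases before the start, and the windows of Inhba and Tgfb1 held none of the motifs. Over 32851 windows of the same length in RefSeq, GTCTG was found in 42.2%, GGCGCC in 9.59% and GTCTAGAC in 0.167%. Of the 30 windows of the members, 11 held GTCTG (36.7%), 7 held GGCGCC (23.3%) and 0 held GTCTAGAC. A match describes the letters of a window and is not evidence of binding.

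Among the 10 receptors the E17R2 differences ran from -0.40 to 0.37 with a median of 0.01, and 0 had an unadjusted p under 0.05. Acvr2b, a type II activin receptor, read 7.36, 7.49 and 7.30 in wild-type and 7.20, 7.15 and 6.61 in homozygous arrays. All homozygous arrays were lower, with replicate 9 lowest, and the difference of -0.40 became -0.21 without it. The other Acvr2b probe sets, which were dimmer, gave 0.002 and 0.04. Acvr1b, the type I receptor of activin, read 8.76, 8.89 and 8.94 against 8.65, 8.74 and 8.67, a difference of -0.17 with no overlap. Its second probe set gave -0.02. Acvr1, a type I receptor that also serves BMP ligands, read 7.84, 7.87 and 7.24 against 7.89, 7.92 and 8.25. Its groups were apart by the narrow gap between 7.87 and 7.89, and the other Acvr1 probe sets gave 0.03 and -0.05. The TGF beta receptors Tgfbr1, Tgfbr2 and Tgfbr3 differed by 0.14, 0.08 and -0.01, and the BMP receptors Bmpr1a, Bmpr1b and Bmpr2 by 0.12, -0.03 and 0.03.

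The 7 Smads, by their brightest probe sets, differed by -0.11 to 0.14, with a median of 0.00. For Smad1 the other probe sets gave 0.03 and -0.18 where the brightest gave 0.07. Smad4, the common partner, gave 0.14 ± 0.14 (SE), and the inhibitory Smad6 and Smad7 gave -0.11 ± 0.09 and 0.02 ± 0.10. By their brightest probe sets the 4 antagonists differed by 0.14 for noggin (Nog) to 0.31 for Bambi, a membrane pseudoreceptor, and 0 of 4 had an unadjusted p under 0.05. Bambi read 7.89, 8.01 and 7.81 in wild-type and 7.94, 8.11 and 8.61 in homozygous arrays. Replicate 9 was again the highest, and the difference fell to 0.12 without it. Follistatin (Fst), which binds activin, spread too widely within each genotype to separate them, at 4.55, 5.64 and 5.14 against 5.15, 4.94 and 5.72. Its second probe set gave -0.42 where the brightest gave 0.16. Without homozygous replicate 9, Fst was at -0.07 and Chrd at 0.01.

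Over the 36 members, 4 were higher in homozygous arrays with no overlap (Tgfb2, Inhba, Acvr1 and Id4) and 3 were lower (Tgfb1, Acvr1b and Acvr2b). Of all genes, 5.05% were higher and 7.24% lower without overlap. The count of higher members, 4 of 36, exceeds its background share and that of lower members, 3 of 36, is close to it, and the excess was not tested. For Id4 the nearest arrays of the groups both read 9.15, so its separation lies in digits beyond those printed. For Acvr1 the gap is also narrow. Leaving out 1 array at a time left 1 to 5 of 36 members with an unadjusted p under 0.05, against 3.56% to 7.22% of all genes. Inhba was in each of the 6 sets.

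**Figure D4:**
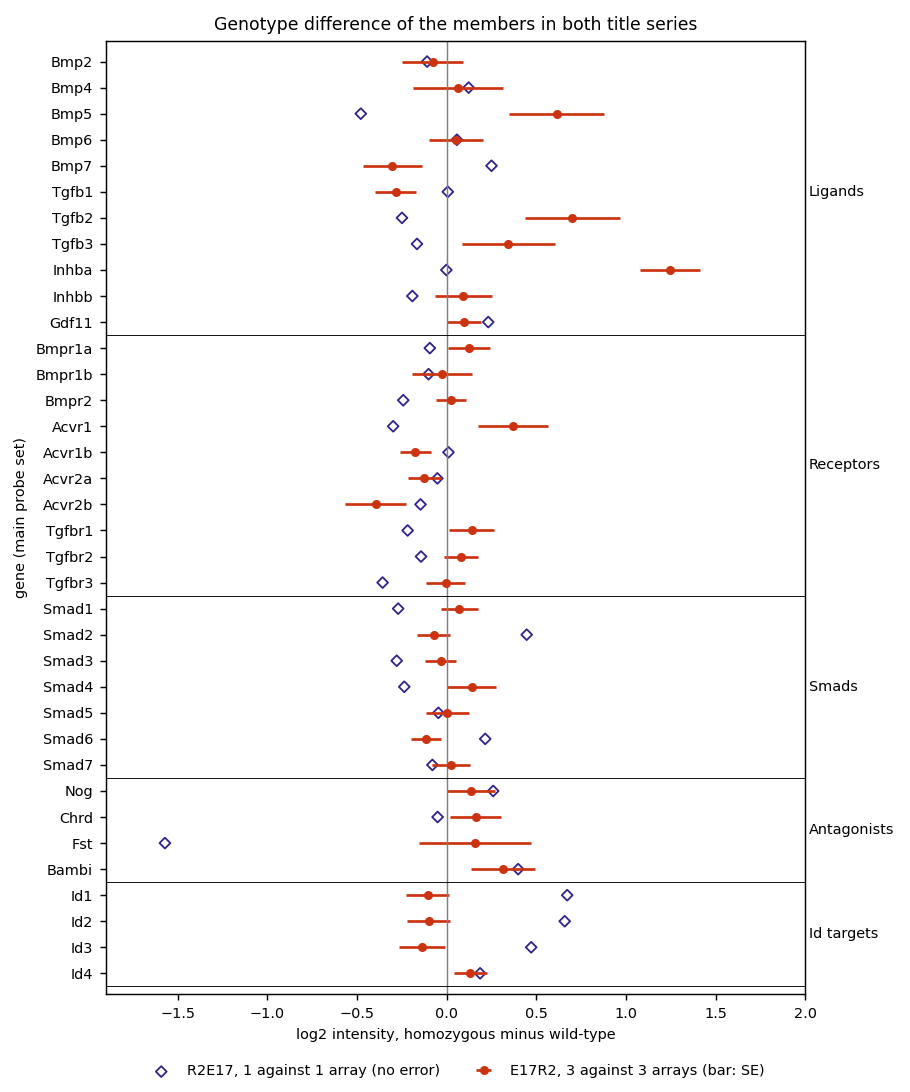
Log2 difference between homozygous and wild-type kidneys for each of the 36 members in the E17R2 arrays (3 against 3, bars are SE) and in the R2E17 pair (1 against 1, no error). Inhba is at 1.25 in E17R2 and near 0 in the pair, and the 4 Id genes lie above 0 in the pair only, apart from Id4, which is above 0 in both.

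The R2E17 pair gave a different picture, with no replicates behind it. Id1 read 10.32 in wild-type and 10.99 in homozygous, Id2 10.73 and 11.39, and Id3 11.54 and 12.01, while Fst read 6.55 and 4.98. These are differences of 0.67, 0.66, 0.47 and -1.57 on the log2 scale. Those beyond 0.5 in either direction numbered 3 of 36 members (Id1, Id2 and Fst), against 11.7% of all genes. By their brightest probe sets 9 of the 10 receptors were lower in the homozygous array, against 39.8% of all genes. Acvr1b was the exception at 0.01. Dimmer probe sets of the receptors lay on both sides of 0. The other probe sets gave 0.80 and -0.05 for Acvr1, -0.21 and 0.16 for Bmpr2, 0.22 and 0.19 for Tgfbr1, and 0.09 and -0.27 for Tgfbr2. The median over the members was -0.07 and over all genes 0.01. In the same pair the 6 stroma and fibroblast markers summed to 28028 in wild-type and 19716 in homozygous, with all 6 lower in homozygous, by -0.19 (Pdgfra) to -1.28 (Lum). The smooth muscle markers summed to 15342 and 12009, with 7 of 10 lower. The wild-type array of the pair is the one whose 3' to 5' control values stood apart, and the part of RNA quality or of these tissues was not tested. The pair has no value without that array.

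The Id genes encode inhibitors of basic helix-loop-helix factors. In the E17R2 arrays Id1 read 9.90, 10.05 and 9.98 in wild-type and 9.72, 10.10 and 9.79 in homozygous kidneys, so the genotypes overlapped. Id2 gave 10.54, 10.76 and 10.52 against 10.32, 10.65 and 10.55, and Id3 gave 11.17, 11.18 and 11.12 against 11.08, 11.23 and 10.76. The differences were -0.11, -0.10 and -0.14, each within about 1 SE of 0. Id4 read 9.11, 9.15 and 8.96 against 9.15, 9.17 and 9.30, a difference of 0.13. For Id2, the other probe sets of the R2E17 pair gave -0.38 and 0.14 where the brightest gave 0.66, and for Id4 the others gave -0.44 and -0.17 where the brightest gave 0.19.

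Promoters of the Id genes are shown because these genes are the pathway's target readout here. The RefSeq table had no entry for Id1.
Id2, chr12:25096093-25096342, minus strand: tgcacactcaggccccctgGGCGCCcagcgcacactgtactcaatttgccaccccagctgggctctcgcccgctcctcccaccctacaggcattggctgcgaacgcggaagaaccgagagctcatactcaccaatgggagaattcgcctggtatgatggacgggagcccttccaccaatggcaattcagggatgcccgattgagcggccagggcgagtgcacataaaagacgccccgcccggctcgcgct
Id3, chr4:136143572-136143821, plus strand: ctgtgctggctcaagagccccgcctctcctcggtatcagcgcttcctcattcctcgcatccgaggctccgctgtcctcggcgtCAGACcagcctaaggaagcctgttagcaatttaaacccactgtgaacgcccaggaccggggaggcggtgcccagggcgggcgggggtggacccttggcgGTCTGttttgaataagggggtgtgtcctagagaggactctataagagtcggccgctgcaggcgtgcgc
Id4, chr13:48260866-48261115, plus strand: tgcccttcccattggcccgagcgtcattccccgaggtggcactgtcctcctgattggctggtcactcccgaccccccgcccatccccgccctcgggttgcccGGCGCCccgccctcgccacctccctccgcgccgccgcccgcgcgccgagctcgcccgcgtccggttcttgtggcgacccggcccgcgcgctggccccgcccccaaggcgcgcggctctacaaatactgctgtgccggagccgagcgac
Id2 held GGCGCC 231 bases and Id4 148 bases before the start, and Id3 held GTCTG, once as CAGAC, at 167 and 68 bases. The GC-rich element, found in 9.59% of all windows, was thus in the windows of Id2 and Id4, and GTCTG, found in 42.2%, in that of Id3.

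Whether the genotype difference itself differed between the title series was tested as an interaction in limma over the 11 arrays, each centred on its median gene, with the single R2E17 arrays assumed to vary like the other groups. Of the members 0 passed an adjusted p of 0.05, against 0.0110% of all genes. At an unadjusted p under 0.05 there were 8 members, 6 with a more positive homozygous minus wild-type difference in E17R2 than in R2E17 and 2 with a more negative one, against 11.7% of all genes. Inhba gave 1.40 ± 0.29 (SE, unadjusted p of 0.00104, adjusted p of 0.343 in limma), where the median gene lay at 0.12. The others above 0 were Fst (1.88 ± 0.78), Bmp5 (1.24 ± 0.51), Tgfb2 (1.10 ± 0.48), Smad1 (0.49 ± 0.19) and Smad3 (0.40 ± 0.16). Id1 (-0.63 ± 0.22) and Id2 (-0.61 ± 0.20) lay below it. The adjusted p values of these 7 genes were 0.371 to 0.424 in limma, and all 8 values rest on the R2E17 wild-type array. Over the alternatives run, Id2 ranged from -0.74 to -0.14, Smad3 from 0.14 to 0.42 and Bmp5 from 0.54 to 1.54. Inhba ranged from 0.98 to 1.53 and Id1 from -0.73 to -0.55. For Id2 the second probe set gave 0.05 in E17R2 and -0.38 in the R2E17 pair.

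Within the set of 5, the R2NB arrays were set against the single R2E17 homozygous array in the same fit. Of the members 0 passed an adjusted p of 0.05, against 0.0110% of all genes, and 1 of 36 had an unadjusted p under 0.05, against 3.24%. That gene was Fst, at 5.69, 6.61 and 7.07 in R2NB and 4.98 in the R2E17 homozygous array. All R2NB arrays were higher, and the R2E17 wild-type array, at 6.55, fell among them. R2NB exceeded the R2E17 homozygous array by 1.50 ± 0.55 (SE), at limma p values of 0.0241 unadjusted and 0.9998 adjusted. The next smallest p values belonged to Id2 (-0.28 ± 0.14) and Id1 (-0.25 ± 0.15). All 4 Id genes had lower means in R2NB, and 0 of them had an unadjusted p under 0.05. Id2 read 11.04, 11.13 and 11.07 in R2NB, between the R2E17 wild-type (10.73) and homozygous (11.39) arrays.

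The contrast between the sets asked how the R2E17 and R2NB arrays differ from E17R2 at matched genotype. Bmp5 had the largest difference of the members and was lower in the set of 5, and Tgfb1 and Bmp6 were higher there. Inhba, Inhbb, Bmp2, Smad1, Chrd, Id1 and Id2 were lower by their brightest probe sets. Raw log2 values of the median gene were 1.01 higher in R2E17 than in E17R2, so each array was centred on its median gene. The differences below are on that centred log2 scale.

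Between R2E17 and E17R2, 13 of 36 members passed an adjusted p of 0.05 in limma, 3 higher and 10 lower, against 47.0% of all genes. By direction the background was 14.0% higher and 33.0% lower. The median over the members was -0.17 and over all genes -0.16. With quantile normalization over all arrays, 34.6% of genes passed and 50.0% of those calls were higher, against 29.9% in the centred fit, so the share of lower calls depends on the scaling. Under it 3 members were higher and 8 lower, and all 11 were also called the same way in the centred fit.

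Between R2NB and E17R2 homozygous kidneys, 18 of 36 members passed in limma, 2 higher and 16 lower, against 51.7% of all genes (14.5% higher and 37.2% lower). The median over the members was -0.26 and over all genes -0.19. Quantile normalization moved the share of higher calls from 28.1% to 48.0%, with 39.0% of genes called, and gave 4 higher and 12 lower members. Both contrasts share the E17R2 homozygous arrays, so each one's values are given side by side and their likeness is not read as a result.

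**Figure D5:**
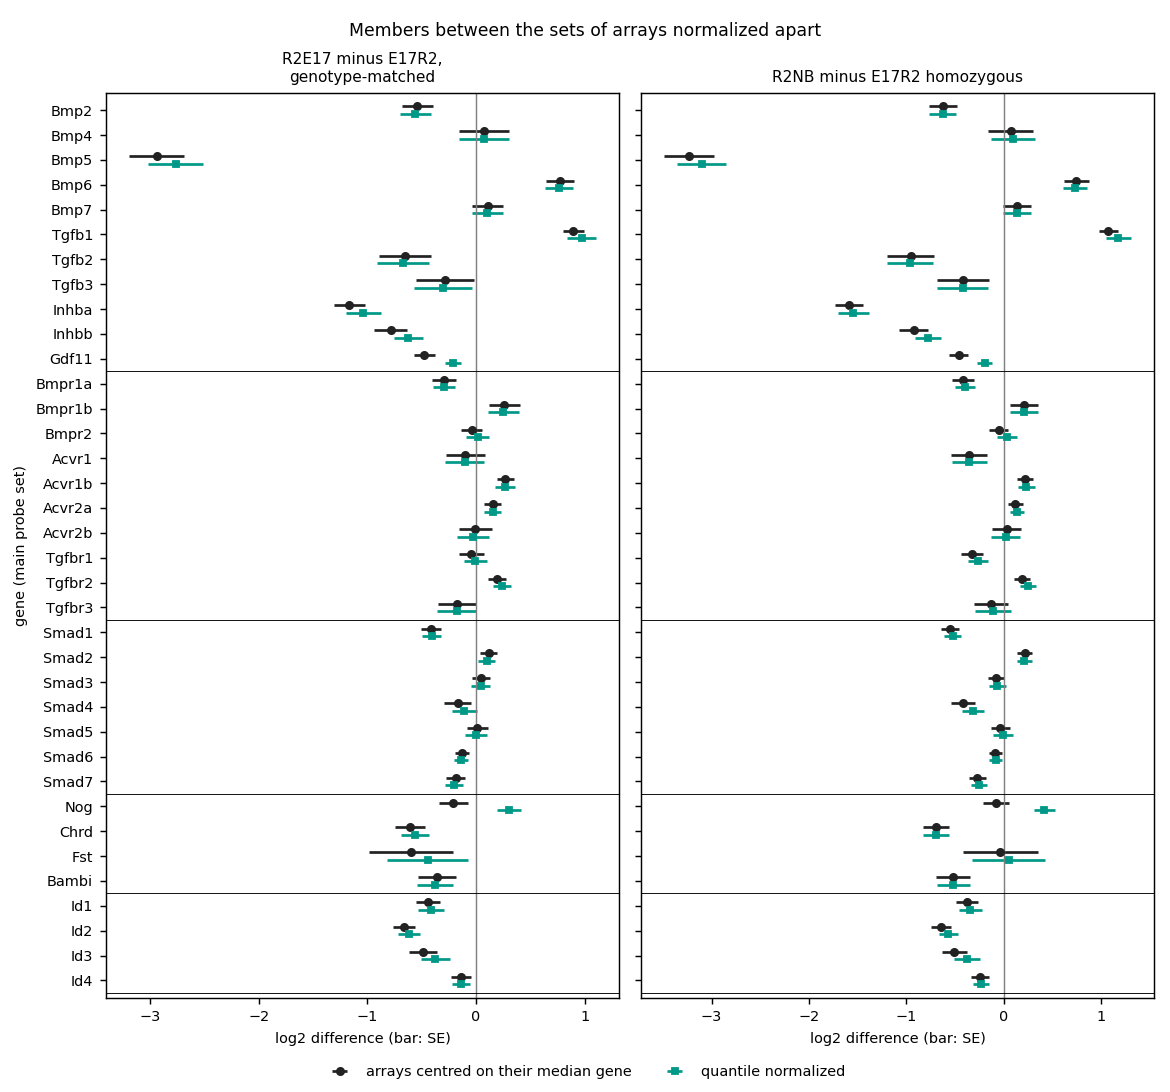
Log2 difference between the sets for the 36 members, with R2E17 against E17R2 at matched genotype in 1 panel and R2NB against E17R2 homozygous in the other, bars showing SE, for arrays centred on their median gene and for quantile normalization. Bmp5 lies near -3 under both scalings, Tgfb1 and Bmp6 lie above 0 under both, and Nog changes sign between them.

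Bmp5 (probe set 1455851_at) had raw log2 intensities of 5.95 to 7.20 in the 6 E17R2 arrays, 4.89 and 4.42 in R2E17, and 4.49, 4.89 and 4.77 in R2NB. All arrays of the set of 5 were lower even before the shift of about 1 that other genes show. The centred difference was -2.94 ± 0.25 (SE, adjusted p of 0.000136 in limma) for R2E17 and -3.23 ± 0.25 (adjusted p of 7.9e-05) for R2NB. The other Bmp5 probe sets, which were dimmer, gave -1.92 and -0.92 for R2E17.

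Tgfb1 (probe set 1420653_at) read 4.51 to 5.06 in E17R2, 6.94 and 6.95 in R2E17 and 6.95 to 7.15 in R2NB. The sets did not overlap, and the centred differences were 0.90 ± 0.10 (SE, adjusted p of 0.000276 in limma) and 1.07 ± 0.10 (adjusted p of 0.000114). The second Tgfb1 probe set went the other way, at -0.33 and -0.28. Bmp6, a BMP ligand with 1 probe set, read 5.59 to 6.13 in E17R2 and 7.74 to 7.87 in the set of 5, with differences of 0.77 ± 0.13 (SE, adjusted p of 0.00153 in limma) and 0.75 ± 0.13 (adjusted p of 0.00155).

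Inhba had centred differences of -1.17 ± 0.14 (SE) for R2E17 and -1.59 ± 0.14 for R2NB, and Inhbb -0.79 ± 0.15 and -0.92 ± 0.15, with limma adjusted p values of 0.000112 to 0.00337 for these 4. For Inhbb the second probe set gave 0.77 and 0.14, so its direction depends on the probe set. Bmp2 differed by -0.54 and -0.63, Gdf11 by -0.48 and -0.46, and Tgfb2 by -0.66 and -0.96, of which the R2E17 value of Tgfb2 did not pass (adjusted p of 0.0511 in limma). Gdf11 was called in neither contrast under quantile normalization, at -0.21 and -0.20 (adjusted p of 0.0512 and 0.0618 in limma). Of the receptors, Acvr1b passed at 0.27 in R2E17, and Bmpr1a and Tgfbr1 passed at -0.42 and -0.32 in R2NB. The other 7 passed in neither contrast on the centred scale. Under quantile normalization Tgfbr2 passed in R2NB, at 0.25 (adjusted p of 0.0408 in limma). The second Acvr1b probe set gave -0.27 for R2E17, and with the mean of all probe sets Acvr1b was at 0.079 (adjusted p of 0.480 in limma). Bmpr1a lost its call with that mean, at -0.18 (adjusted p of 0.113). Tgfbr1 lost its call under quantile normalization, at -0.26 (adjusted p of 0.0780).

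Smad1, a receptor Smad of the BMP branch, was lower in both contrasts, at -0.41 ± 0.09 and -0.55 ± 0.09 (SE), by its brightest probe set. Its other probe sets gave 0.05 and -0.16 for R2E17 and -0.13 and -0.06 for R2NB, and with the mean of all probe sets both calls were lost, at -0.096 and -0.149 (adjusted p of 0.535 and 0.326 in limma). In R2NB Smad4 and Smad7 also passed, at -0.42 and -0.27. The second Smad7 probe set, which was dimmer, went the other way, at 0.72. Smad4 lost its call under quantile normalization (-0.31, adjusted p of 0.0557 in limma) and with the mean of all probe sets (-0.094, adjusted p of 0.415), and its other probe sets gave -0.13 and -0.03. Smad2, Smad3, Smad5 and Smad6 passed in neither. Chordin (Chrd), a BMP-binding antagonist, differed by -0.61 ± 0.14 and -0.70 ± 0.14, and Bambi passed in R2NB at -0.52. Id1, Id2 and Id3 passed in R2E17 at -0.44, -0.66 and -0.49 and in R2NB at -0.38, -0.65 and -0.51, and Id4 passed in neither. Without the R2E17 wild-type array, the R2E17 values for Id1, Id2 and Id3 were -0.13, -0.36 and -0.26, with limma adjusted p values of 0.547, 0.0810 and 0.290. Acvr1b also lost its call, at 0.29, and Tgfb2 and Bmpr1a were at -1.21 and -0.48. These values rest on the single R2E17 homozygous array. The R2NB contrast does not use that array. Under quantile normalization Id3 passed in neither contrast, at -0.38 in both (adjusted p of 0.0583 and 0.0526 in limma). In R2NB, Id1, Smad4, Smad7, Bambi and Tgfbr1 each lost the call without R2NB replicate 4 and also without R2NB replicate 5. Leaving out an E17R2 array cost the call of Id1, Smad7 and Tgfbr1 (homozygous replicate 8), of Smad4, Smad7, Bambi and Tgfbr1 (homozygous replicate 9), of Tgfbr1 (homozygous replicate 2 and wild-type replicate 3) and of Bambi (wild-type replicate 1), and leaving out R2NB replicate 3 cost that of Tgfbr1. Their values in those fits were -0.52 to -0.31 for Bambi, -0.34 to -0.27 for Id1, -0.42 to -0.32 for Smad4, -0.26 to -0.24 for Smad7 and -0.35 to -0.27 for Tgfbr1, with limma adjusted p values from 0.0510 to 0.133. The same 5 calls were also lost with log2(intensity + 16), and those of Inhbb, Id1 and Bambi with the mean of all probe sets. Nog, the dimmest member, turned from -0.21 to 0.30 for R2E17 and from -0.08 to 0.42 for R2NB under quantile normalization. The R2NB value of Nog passed there (adjusted p of 0.0162 in limma).

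Considering all 5 arrays against all 6 on the centred scale, 2 members were higher without overlap and 10 lower, against 12.4% and 30.2% of all genes.

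Other genes of the pathway, 67 of a list of 76, were read in the same way, and the other 9 were not analysed here. In the E17R2 comparison 0 passed an adjusted p of 0.05 in limma. At an unadjusted p under 0.05, 7 were higher and 4 lower, against 2.52% and 3.08% of all genes. The smallest p values belonged to Tll1, a BMP1-like protease that cleaves chordin (0.40 ± 0.08, SE), Bmper, a BMP-binding protein (-0.48 ± 0.12), the ligand Gdf10 (1.03 ± 0.31), the latent TGF beta activating integrin subunit Itgb6 (-0.48 ± 0.16) and the antagonist Sostdc1 (-0.59 ± 0.20), all at an adjusted p of 0.840 in limma. Tll1 was dim, at 2.15 to 2.29 in wild-type and 2.59 to 2.61 in homozygous arrays. Bmper read 7.94, 8.08 and 7.84 against 7.63, 7.53 and 7.26, with every homozygous array lower. Gdf10 read 7.69, 7.87 and 7.14 against 8.10, 8.48 and 9.21, with homozygous replicate 9 the highest. Sostdc1 read 10.17, 10.25 and 9.89 against 9.67, 9.77 and 9.09, with that replicate the lowest. Itgb6 and Gdf10 went the other way in the R2E17 pair, at 1.47 and -0.26.

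The interaction gave 10 other pathway genes above and 2 below at an unadjusted p under 0.05, against 7.10% and 4.64% of all genes, and 0 at an adjusted p of 0.05. Collagen I (Col1a1, 1.77 ± 0.48, SE), Itgb6 (-1.80 ± 0.49), the TGF beta induced matrix protein Tgfbi (0.96 ± 0.27), the latent TGF beta binding protein Ltbp3 (0.86 ± 0.25) and Col3a1 (0.83 ± 0.27) had the smallest p values. Between the R2NB and R2E17 homozygous arrays 0 of the 67 passed an adjusted p of 0.05, against 0.0110% of all genes. At an unadjusted p under 0.05, 2 were higher and 1 lower, against 3.24% of all genes in either direction. They were Itgb6 (-0.999), Nodal (0.38) and Ski (0.35). Between the sets, 6 passed higher and 18 lower for R2E17, and 11 higher and 26 lower for R2NB, against 14.0% and 33.0%, and 14.5% and 37.2%, of all genes. Endoglin (Eng), a TGF beta co-receptor, was 0.77 and 0.75 higher. Tll1, Smad9, Lefty2 and Amh were lower on the centred scale. They were at -0.69, -0.73, -0.71 and -1.64 for R2E17 and -0.87, -0.84, -0.86 and -1.77 for R2NB. Raw values of Tll1, Smad9 and Lefty2 were low and were higher in the set of 5. Tll1 read 2.15 to 2.61 in E17R2 and 2.82 to 3.02 in the set of 5. Smad9 read 3.13 to 3.45 and 3.75 to 3.76, and Lefty2 2.23 to 2.81 and 2.82 to 3.08. Their lower centred values thus rest on subtracting the shift of the median gene. Raw Amh read 4.98 to 6.00 in E17R2 and 4.80 to 4.95 in the set of 5.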

How the data were processed

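The intensity values that the authors deposited were computed with RMA, per the submitters' processing notes, whose version and settings the sources used here do not give. Values were above 0 on a linear scale, so log2 was taken with no pseudocount. Of 45101 probe sets, 64 controls were set aside, 34945 had 1 symbol, 932 several and 9160 none, and 34741 were matched by Entrez identifier to a RefSeq table (GRCm38.p6). The brightest probe set stood for each of 18193 genes. All per-sample columns were used (0 unused).

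The tests were 2-sided moderated tests of limma 3.58.1 (R 4.3.3; lmFit, then eBayes), with Benjamini-Hochberg adjustment over all genes at a threshold of 0.05. The E17R2 arrays were fitted alone, and the other contrasts were fitted over 11 arrays centred on their median gene. The scripts were tested on simulated data. Members and lists were chosen with earlier results of these data known. The naming rule gave members with an unadjusted p under 0.05, or the 3 smallest, members whose groups do not overlap, and up to 5 other pathway genes per comparison with the smallest p. Alternatives covered quantile normalization, the probe set rule, a filter on dim probe sets, a pseudocount, other fits and single arrays left out.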

Additional observations from a re-analysis of the deposited data

How the results depend on the processing

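No paired analysis was possible because the wild-type and homozygous groups share fewer than 2 replicate numbers. In the E17R2 comparison 0 members passed under any alternative run, and 0 of all genes except 1 without wild-type replicate 7. There the leave-one-out counts ran from 0 to 1. For R2NB against the R2E17 homozygous array, 2 of all genes passed. The count was 1 with the mean of all probe sets, 6 with log2(intensity + 16), 0 with only the 5 arrays of the set, and 2 to 18 with 1 array left out, 18 without R2NB replicate 3 and 5 without R2NB replicate 5. For R2E17 against E17R2, members called went from 13 of 36 to 8 of 29 with dim probe sets filtered. Genes called went from 8550 of 18193 (47.0%) to 3748 of 9581 tested (39.1%). The filter drops 7 members (Tgfb1, Inhba, Inhbb, Gdf11, Nog, Chrd and Fst). With all 5 arrays against all 6, 21 members were called, and the share over all genes is not given here. For R2NB against E17R2 genes called went from 9410 of 18193 (51.7%) to 4317 of 9581 (45.1%) with dim probe sets filtered. The member median there went from -0.26 to -0.11 with the mean of all probe sets. In the interaction that setting moved the member median from 0.21 to 0.087. There 2 of all genes passed in the reported fit, 6 with dim probe sets filtered, 0 with the mean of all probe sets, 1 without suffixed probe sets, 11 with log2(intensity + 16), 4 with trend and robust settings and 2 to 13 with 1 array left out, 13 without R2NB replicate 3 and 4 without R2NB replicate 5. Signs turned with the mean of all probe sets for Inhbb (0.072) and Tgfbr2 (-0.071) in R2E17 against E17R2 and for Smad7 (0.32) and Id4 (0.20) in R2NB against E17R2, and without suffixed probe sets for Smad2 (-0.21) there. Where a value does not follow from fewer genes or arrays, the cause was not tested. Of the named genes' values under alternatives, 725 kept their direction and side of the threshold, 45 lost a call, 28 gained one and 5 reversed. Comparing R2E17 with E17R2 on homozygous arrays only was chosen after seeing the data. Leaving out a single R2E17 array gives no estimate. Without detection calls, dim members such as Nog have no measured floor.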

Other observations

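Identical gene values on a pair of arrays numbered 1646 to 2270 among the R2E17 and R2NB arrays, against 37 to 73 among the E17R2 arrays. Among the members, Smad6 read 8.74 and Smad1 9.92 on all 3 R2NB arrays. Bmp2 read 8.34 on R2NB replicates 3 and 5 and on the R2E17 homozygous array. Whether such ties lowered the spread in the fits over 11 arrays was not tested.

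The liver marker list deviated by 3.96 from its set mean in R2NB replicate 4, which also had the adrenal list at 2.43. In the set of 6 the adrenal list stood at 1.74 and 1.76 in wild-type replicates 1 and 3, and the liver list at 2.36 in wild-type replicate 7 and 1.02 in homozygous replicate 2. Among the members, Tgfbr3 read 9.40, 9.99 and 10.11 and Fst 5.69, 6.61 and 7.07 on R2NB replicates 3, 4 and 5. These were the widest R2NB spreads of all members, with SDs of 0.38 and 0.70. Replicate 3 was the lowest in both genes.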
